A study of Mus musculus with 16 samples.

Results

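Matrix metalloproteinases are zinc enzymes that cut collagens, laminins, elastin and other proteins of the tissue matrix, and Timp1 is one of the secreted proteins that block them. The 10 genes described here are 9 matrix metalloproteinases and *Timp1*, chosen by name out of 35647 gene identifiers in the table. All 10 were present in it. They had been sorted beforehand into granulocyte members (*Mmp8*, *Mmp9* and *Mmp25*) and stromal members (*Mmp2*, *Mmp3*, *Mmp10*, *Mmp13*, *Mmp14* and *Timp1*). *Mmp12*, the macrophage elastase, was kept apart. The choice was made with the CPM of these genes in the 4 groups in view (CPM, the estimated counts of a gene scaled to the library's total), and the strain values of *Mmp25* in ileum were known. Values of the strain comparison in ileum are therefore given as a description with no test.

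Germ-free mice of wild-type genotype were colonized for 5 weeks with 1 of 2 strains of *Bifidobacterium breve*, a gut commensal. The Δchat strain makes no acetylcholine, and the other strain was wild-type (WT). The 4 groups, with 4 libraries each, were ileum with Δchat, ileum with WT, colon with Δchat and colon with WT. Mice that stayed germ-free, and the age and sex of the mice, were not analysed here. Lamina propria cells, the mixed cells below the gut epithelium, were taken from a 40% and 80% Percoll density gradient, and their poly-A RNA was sequenced. The libraries held 15.9 to 23.6 M estimated counts each. Every library held lymphocyte genes at a summed 4580 CPM or more over the 10 markers of that list. Fibroblast genes were high too, with sums of 1520 to 9144 CPM over 11 markers, so these were not purely immune cells. In such mixed samples fewer cells of a type and less RNA per cell cannot be told apart. Among the libraries with Δchat, 3 stood apart. Ileum replicate 2 had the highest macrophage sum (3548 CPM over 10 markers) and the lowest fibroblast sum. Ileum replicate 3 had the highest fibroblast sum of its group (6838 CPM). Colon replicate 3 had an epithelial sum of 2595 CPM over 8 markers, against 192 CPM or more in the other colon libraries with Δchat and at most 171 CPM in colon with WT.

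The enzymes are made as inactive precursors and are opened by other proteases, among them plasmin, furin and other metalloproteinases. In the gut mucosa they remodel the matrix during inflammation and repair, and they also cut chemokines and cytokines. Many of their genes are induced by interleukin 1 and tumour necrosis factor through AP-1, a transcription factor that binds the letters TGAGTCA. *Mmp9* (gelatinase B), *Mmp8* (a collagenase) and *Mmp25* (a membrane-anchored enzyme) are known from neutrophil granules and membranes. *Mmp2* (gelatinase A), *Mmp3* and *Mmp10* (stromelysins), *Mmp13* (a collagenase) and *Mmp14* (a membrane-type enzyme that activates the Mmp2 precursor) are best known from connective tissue cells.

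Of the 10 genes, 5 lie in 1 cluster of metalloproteinase genes on chromosome 9. In the RefSeq order for GRCm38.p6 the cluster runs *Mmp13*, *Mmp12*, *Mmp1b*, *Mmp3*, *Mmp1a*, *Mmp10*, *Mmp8*, *Mmp27*, *Mmp20* and *Mmp7*. The others lie apart, *Mmp9* on chromosome 2, *Mmp2* on 8, *Mmp14* on 14, *Mmp25* on 17 and *Timp1* on X. Promoters of 8 of the 10 genes were matched by symbol in RefSeq (GRCm38.p6), each 250 bases before to 50 bases after an annotated start. *Mmp2* and *Mmp9* had no match. The promoters of *Mmp13*, *Mmp3* and *Mmp10* are shown because, with WT *B. breve*, their levels lay higher in every ileum library than in every colon library. For *Mmp10* this direction was set by the filter on low counts and is given without a test. *Mmp12*, whose levels lay likewise, is not shown. The promoter of *Mmp25*, a gene outside the cluster, is shown to set beside them. Its levels too lay higher in every ileum library with WT than in every colon library with WT, and its promoter holds no match. Capitals mark TGAGTCA on either strand, which reads TGACTCA on the other.
Mmp13 (chr9:7272264-7272563, plus strand): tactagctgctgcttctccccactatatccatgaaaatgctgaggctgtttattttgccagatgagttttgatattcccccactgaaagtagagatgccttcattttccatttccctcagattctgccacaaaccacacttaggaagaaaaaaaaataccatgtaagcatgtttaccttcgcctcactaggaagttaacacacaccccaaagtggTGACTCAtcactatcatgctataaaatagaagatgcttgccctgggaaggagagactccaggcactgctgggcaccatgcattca
Mmp3 (chr9:7445572-7445871, plus strand): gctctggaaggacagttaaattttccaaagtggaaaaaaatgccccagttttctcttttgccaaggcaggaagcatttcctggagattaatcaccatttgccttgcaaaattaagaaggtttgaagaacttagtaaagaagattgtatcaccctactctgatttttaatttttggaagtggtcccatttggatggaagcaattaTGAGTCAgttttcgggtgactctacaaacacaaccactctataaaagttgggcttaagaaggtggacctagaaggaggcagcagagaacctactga
Mmp10 (chr9:7502092-7502391, plus strand): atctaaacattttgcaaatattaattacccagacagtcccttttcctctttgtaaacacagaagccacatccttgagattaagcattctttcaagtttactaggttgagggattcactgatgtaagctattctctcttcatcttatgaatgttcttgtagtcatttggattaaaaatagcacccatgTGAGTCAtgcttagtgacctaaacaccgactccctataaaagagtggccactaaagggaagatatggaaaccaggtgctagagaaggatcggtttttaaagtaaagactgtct
Mmp25 (chr17:23645220-23645519, minus strand): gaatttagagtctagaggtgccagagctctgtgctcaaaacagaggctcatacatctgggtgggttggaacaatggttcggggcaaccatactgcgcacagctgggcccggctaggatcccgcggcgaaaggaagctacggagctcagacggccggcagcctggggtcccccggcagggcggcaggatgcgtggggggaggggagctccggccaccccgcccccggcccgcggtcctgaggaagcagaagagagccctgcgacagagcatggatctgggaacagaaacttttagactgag
The motif begins 35 bases before the annotated start of *Mmp13*, 46 before that of *Mmp3* and 63 before that of *Mmp10*. A promoter of *Mmp12* holds it as well, 44 bases before the start, so that 4 of the 8 matched genes have it, all in the cluster. Of all 32851 promoters in the table, 5.20% hold TGAGTCA on either strand. The letters TATAAA, searched on both strands, are in promoters of *Mmp13*, *Mmp12*, *Mmp3*, *Mmp10* and *Mmp8* and in 13.6% of all promoters. A match is a run of letters in this window and no measure of binding.

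The granulocyte members were low in ileum of mice with Δchat *B. breve*. *Mmp9* (ENSMUSG00000017737) stood at 25.9, 39.9, 31.5 and 18.8 CPM in ileum with Δchat, against 91.8, 69.5, 104 and 77.7 CPM in ileum with WT. The highest library with Δchat lay below the lowest with WT. Its log2 fold change, Δchat over WT, was -1.59 ± 0.23 (SE). *Mmp25* (ENSMUSG00000023903) stood at 7.59, 8.17, 6.47 and 6.43 CPM in ileum with Δchat, against 26.3, 28.9, 25.3 and 14.9 CPM in ileum with WT. Again the groups did not overlap, with WT replicate 4 nearest to the Δchat libraries. The log2 fold change was -1.76 ± 0.20. *Mmp8* was scarce, at 0.0654, 0.926, 0.471 and 0.471 CPM with Δchat and 2.26, 0.730, 1.08 and 0.501 CPM with WT, from at most 38 estimated counts. The groups overlapped for *Mmp8*, and its log2 fold change was -1.23 ± 0.66.

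**Figure D1:**
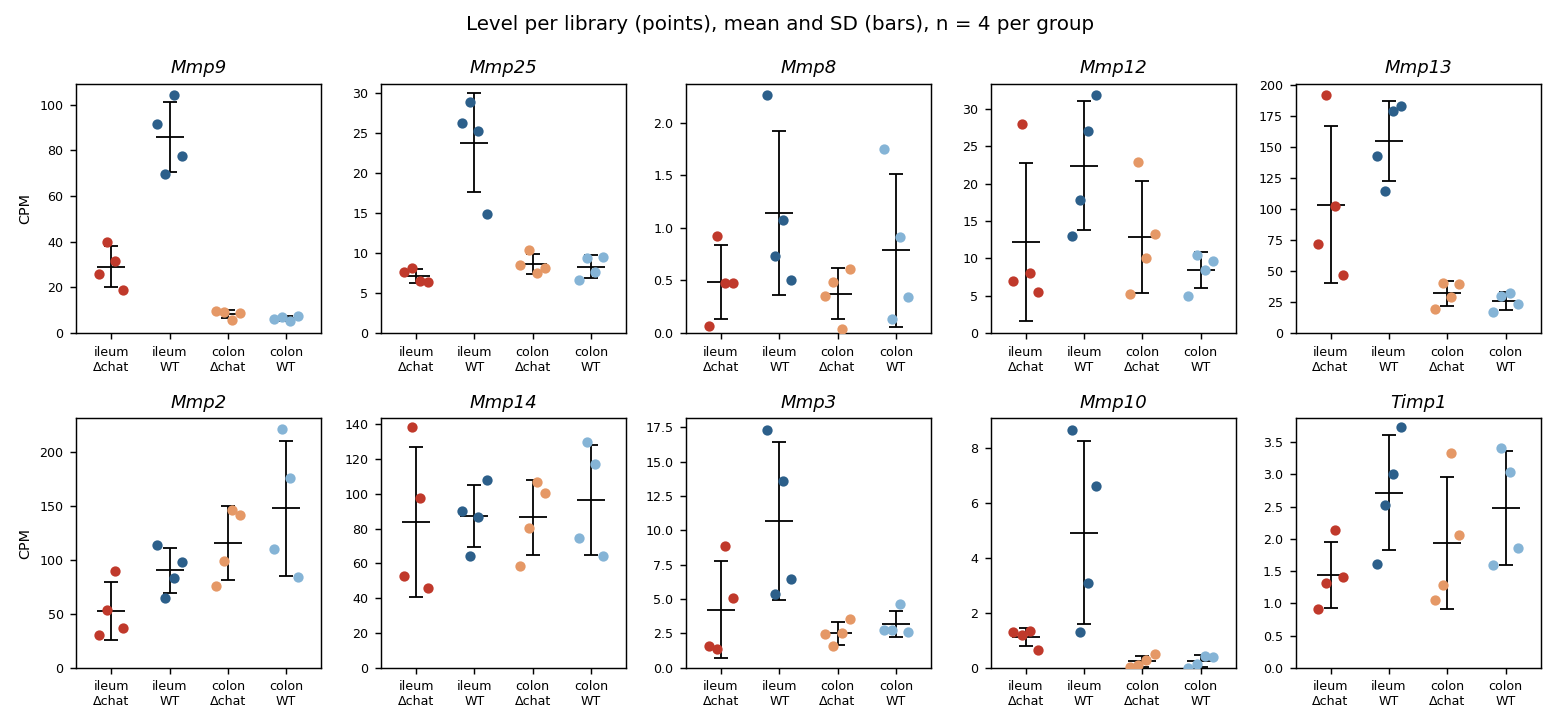
Level of each of the 10 genes in CPM (vertical axes, linear and starting at 0) in the 4 libraries of ileum with Δchat, ileum with WT, colon with Δchat and colon with WT. Points are libraries, wide bars are means and error bars are SD, cut off at 0; *Mmp9* and *Mmp25* with Δchat in ileum lie below every ileum library with WT.

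Macrophage and stromal members were also lower on average in ileum with Δchat, with wide spread between libraries. *Mmp12* stood at 6.997, 27.9, 8.10 and 5.53 CPM with Δchat, against 13.0, 17.8, 27.1 and 31.9 CPM with WT. The high library with Δchat was replicate 2, which also had the most macrophage transcripts, and the log2 fold change was -0.92 ± 0.55. *Mmp13* (ENSMUSG00000050578) stood at 72.1, 192, 102 and 46.9 CPM with Δchat, against 143, 114, 179 and 183 CPM with WT. Here too replicate 2 was the highest of all 8 ileum libraries, and the log2 fold change was -0.61 ± 0.40. *Mmp3* stood at 1.57, 1.36, 8.87 and 5.10 CPM with Δchat, against 17.3, 5.39, 13.6 and 6.45 CPM with WT. Its highest library with Δchat was replicate 3, the one rich in fibroblast transcripts, and its log2 fold change was -1.33 ± 0.66.

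*Mmp10* had 1.31, 1.20, 1.33 and 0.643 CPM with Δchat, against 8.63, 1.29, 3.09 and 6.62 CPM with WT. WT replicate 2 lay within the range of the Δchat libraries, and the log2 fold change was -2.15 ± 0.56, the lowest estimate of the 10 genes. *Mmp2* had 30.7, 53.8, 89.7 and 36.4 CPM with Δchat, against 114, 65.0, 83.5 and 98.2 CPM with WT, a log2 fold change of -0.79 ± 0.35. *Mmp14* had 53.0, 138, 97.8 and 45.7 CPM with Δchat, against 90.4, 64.5, 86.8 and 108 CPM with WT. Its mean differed little between the strains (log2 fold change -0.09 ± 0.35). *Timp1* had 0.915, 1.31, 2.14 and 1.41 CPM with Δchat, against 1.61, 2.53, 3.01 and 3.73 CPM with WT, a log2 fold change of -0.91 ± 0.35. The inhibitor was lower on average like most of the enzymes, and its groups overlapped.

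All 10 log2 fold changes in ileum were negative, with a median of -1.07, beside a median of 0.01 over 14496 genes tested. In 2 of the 10, *Mmp9* and *Mmp25*, every library with Δchat lay below every library with WT, as did 3.38% of all 15198 genes tested over both tissues. In 0 of the 10 did every library with Δchat lie above, as in 3.74% of all genes. The edgeR quasi-likelihood test called 0.0207% of all genes in this comparison (Benjamini-Hochberg adjusted p under 0.05). Because this comparison guided the choice of the 10 genes, nothing is read from these counts. Leaving out single libraries kept the log2 fold change of *Mmp9* between -1.77 and -1.43 and that of *Mmp25* between -1.93 and -1.65. *Mmp3* ranged from -1.99 (without Δchat replicate 3) to -0.996, and *Mmp2* from -1.20 (without the same library) to -0.60. Without Δchat replicate 2, *Mmp12* stood at -1.72 and *Mmp13* at -1.08, and their highest values, without Δchat replicate 4, were -0.68 and -0.37. *Mmp8* ranged from -1.68 to -0.68, the highest without WT replicate 1. *Mmp14* changed sign, with a range from -0.43 to 0.12.

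In colon none of the members passed the test of the strains. The CPM of these genes in colon were in view when the genes were chosen. The p-values and counts of members given for colon are therefore a description and no independent evidence. *Mmp9* stood at 9.49, 9.39, 5.51 and 8.92 CPM in colon with Δchat, against 6.13, 7.10, 5.07 and 7.28 CPM in colon with WT. The ranges overlapped, since replicate 3 with Δchat was low, and the log2 fold change was 0.39 ± 0.20 (edgeR adjusted p = 0.430). *Mmp25* stood at 8.52, 10.4, 7.51 and 8.12 CPM with Δchat, against 6.68, 9.39, 7.67 and 9.53 CPM with WT. The ranges overlapped (log2 fold change 0.06 ± 0.16, edgeR adjusted p = 0.888). *Mmp12* had the largest positive value, 0.63 ± 0.42 (edgeR adjusted p = 0.537), from 5.21, 23.0, 10.02 and 13.3 CPM with Δchat and 4.98, 10.4, 8.47 and 9.70 CPM with WT. *Mmp8* had the lowest, -1.07 ± 0.83 (edgeR adjusted p = 0.589), on at most 32 estimated counts per library.

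The stromal members of colon did not pass either. *Mmp2*, the highest of the 10 in colon by CPM per kb, had 75.4, 98.8, 146 and 142 CPM with Δchat, against 110, 221, 176 and 83.9 CPM with WT. Its log2 fold change was -0.34 ± 0.33 (edgeR adjusted p = 0.680). *Mmp14* had -0.14 ± 0.27, *Mmp13* 0.33 ± 0.28, *Mmp3* -0.33 ± 0.31 and *Timp1* -0.33 ± 0.42 on the same log2 scale, with edgeR adjusted p values from 0.625 to 0.844. *Mmp10*, with at most 11 estimated counts in a colon library, was too low to be tested there. Of the 9 members tested, 0 were called by edgeR, by DESeq2 or by limma-voom, and 0 had an unadjusted p below 0.05. Over all 14660 genes tested in colon 0.00682% were called, and 1951 had an unadjusted p below 0.05. In 0 of the 10 genes did the colon groups not overlap, against 3.65% of all genes with every Δchat library above and 3.57% with every one below. Macrophage markers moved with *Mmp12* and *Mmp13* in colon: their summed level was 376 to 773 CPM with Δchat and 291 to 401 CPM with WT, with all 10 markers at 1 CPM or more on average and none at 0. All 10 had a positive log2 fold change (median 0.76) and an unadjusted p below 0.05, and 0 passed after edgeR adjustment. The 8 epithelial markers summed to 192 to 2595 CPM in colon with Δchat and 35.7 to 171 CPM in colon with WT, without overlap and with none at 0. All 8 had a positive log2 fold change (median 3.11) and an unadjusted p below 0.05, and 0 were called by edgeR. The part of either list in the colon values was not tested. Leaving out single libraries moved *Mmp12* to 0.18 without Δchat replicate 2, *Mmp2* to -0.078 without WT replicate 2, *Timp1* to -0.76 without Δchat replicate 3, *Mmp8* to -0.35 without WT replicate 1 and *Mmp3* to -0.097 without WT replicate 3. *Mmp13* ranged from 0.17, without WT replicate 1, to 0.51, and none of these passed.

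**Figure D2:**
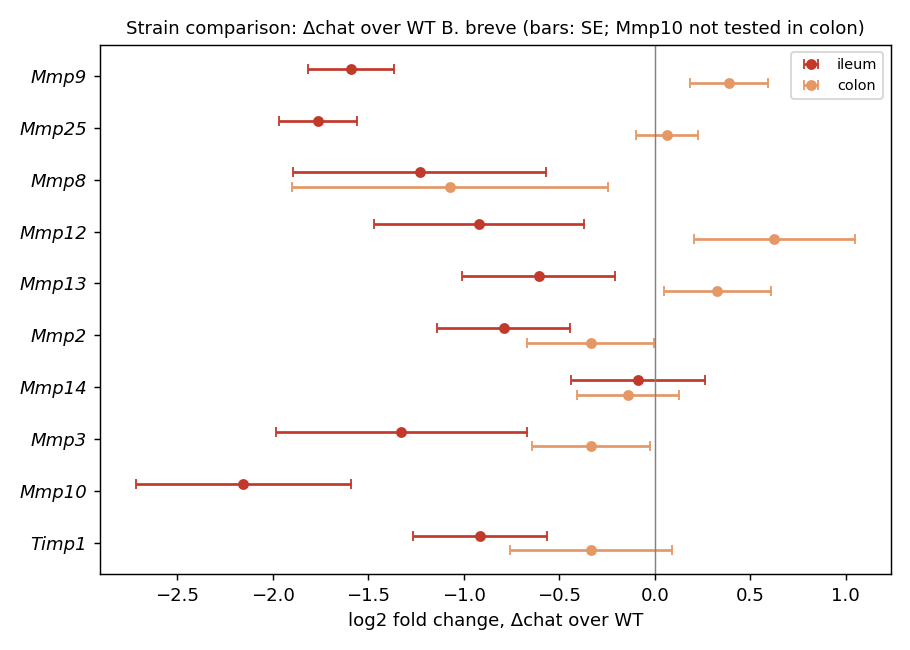
Log2 fold change of Δchat over WT (horizontal axis) for the 10 genes in ileum and in colon, with SE as bars; *Mmp10* has no colon value. In ileum all 10 estimates are below 0, and in colon the 9 tested ones lie on both sides of 0.

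The difference of the strain effect between the tissues, ileum minus colon, was -1.95 ± 0.32 for *Mmp9* and -1.79 ± 0.27 for *Mmp25* on the log2 scale in a fit over all 16 libraries. These 2 of the 10 members passed the threshold of that fit, in which 0.0592% of all 15198 genes were called, each of them lower. The ileum values that guided the choice of the genes enter this difference, so that the calls are a description and no independent evidence. With the mouse as a block (both tissues of a mouse share a number), the values were -1.96 ± 0.35 and -1.76 ± 0.28 and 0 of the 10 members passed. The call of *Mmp9* was kept without ileum Δchat replicate 2, colon Δchat replicate 3 or ileum WT replicate 4, and was lost without any of the other 13 libraries. That of *Mmp25* was kept without colon Δchat replicate 1 or 3, ileum Δchat replicate 2, or replicate 4 of either tissue with WT, and was lost without any of the other 11 and in limma-voom. Without single libraries the values lay between -2.15 and -1.79 for *Mmp9* and between -1.99 and -1.71 for *Mmp25*, and limma-voom gave -2.41 for *Mmp9*. *Mmp10* had a difference of -2.02 ± 1.11, *Mmp12* one of -1.50 ± 0.74, and *Mmp14* one of 0.10 ± 0.47, whose sign changed without single libraries.

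The tissues themselves differed for several members. The ileum libraries of these comparisons are also those of the strain comparison, which the choice of genes had used. The CPM of these genes in colon were in view at that choice too. The calls, p-values and rank of members given for the tissues are therefore a description and no independent evidence. *Mmp10* passed the filter on low counts only through its ileum libraries, so that its direction was set by the filter, and it is given without a test and left out of the counts. With WT, *Mmp9*, *Mmp25*, *Mmp3* and *Mmp13* were higher in ileum than in colon, 4 of the other 9 members, and 0 were lower. Over all genes 13.7% were called higher and 15.1% lower. *Mmp9* was 13.4-fold higher in ileum than in colon (log2 fold change 3.75 ± 0.24, edgeR adjusted p = 1.35e-06) and had the second smallest p of all genes tested. *Mmp25* had a log2 fold change of 1.52 ± 0.19 (edgeR adjusted p = 0.000173), and *Mmp13* one of 2.59 ± 0.39 (edgeR adjusted p = 0.000616). The colon values of *Mmp13* were 16.6, 30.0, 32.3 and 23.6 CPM with WT, below every ileum library with WT.

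*Mmp10* had 0, 3, 11 and 7 estimated counts in colon with WT, below every ileum library with WT. *Mmp3* had 2.74, 2.78, 4.63 and 2.60 CPM in colon with WT and a log2 fold change of 1.74 ± 0.54 (edgeR adjusted p = 0.0265). The call of *Mmp3* was lost without ileum WT replicate 1 or 3 or colon WT replicate 1, 2 or 4, at edgeR adjusted p values from 0.0599 to 0.0849. *Mmp12* did not pass (1.42 ± 0.53, edgeR adjusted p = 0.0585) and did with the mouse as a block (1.39 ± 0.27, edgeR adjusted p = 0.00907). *Mmp2*, *Mmp14*, *Mmp8* and *Timp1* did not pass, with log2 fold changes of -0.71 ± 0.36, -0.14 ± 0.33, 0.54 ± 0.77 and 0.13 ± 0.39. In 5 of the 9 genes every ileum library with WT lay above every colon library with WT, as in 16.3% of all genes, and in 0 of the 9 below, as in 18.6% of all genes.

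With Δchat *B. breve*, *Mmp9* and *Mmp13* were higher in ileum than in colon, 2 of the same 9 members, where 8.31% of all genes were called higher and 5.03% lower. *Mmp9* had a log2 fold change of 1.80 ± 0.23 (edgeR adjusted p = 0.000323) and *Mmp13* one of 1.69 ± 0.38 (edgeR adjusted p = 0.00941). For both, every ileum library with Δchat lay above every colon library with Δchat. These were 2 of the 9 genes, against 9.38% of all genes, and 0 of the 9 lay below, against 6.09%. The *Mmp10* levels of ileum with Δchat lay above those of colon with Δchat too, on 1 to 10 estimated counts in colon with Δchat. *Mmp25* did not pass with Δchat (-0.27 ± 0.19, edgeR adjusted p = 0.369). *Mmp2* was at -1.13 ± 0.36 and just missed the threshold (edgeR adjusted p = 0.0525), and passed with the mouse as a block (-1.21 ± 0.33, edgeR adjusted p = 0.0498). The other 5 members did not pass, and their log2 fold changes ran from -0.41 for *Timp1* to 0.76 for *Mmp3*. The calls of *Mmp9* and *Mmp13* were kept in both tissue comparisons in every alternative that was run. Macrophage markers moved with the tissue: 9 of the 10 were higher in ileum with either strain (median log2 fold change 1.65 with Δchat and 2.21 with WT). Of the 7 neutrophil markers that passed the filter within both tissues, 3 were higher in ileum with Δchat and 5 with WT, and 0 were lower. This leaves out *Mpo* and *Cebpe*, which were called with WT but did not pass the filter within both tissues, 1 of them lower in ileum. The part of either list in the tissue values of *Mmp9*, *Mmp12*, *Mmp13* and *Mmp25* was not tested.

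**Figure D3:**
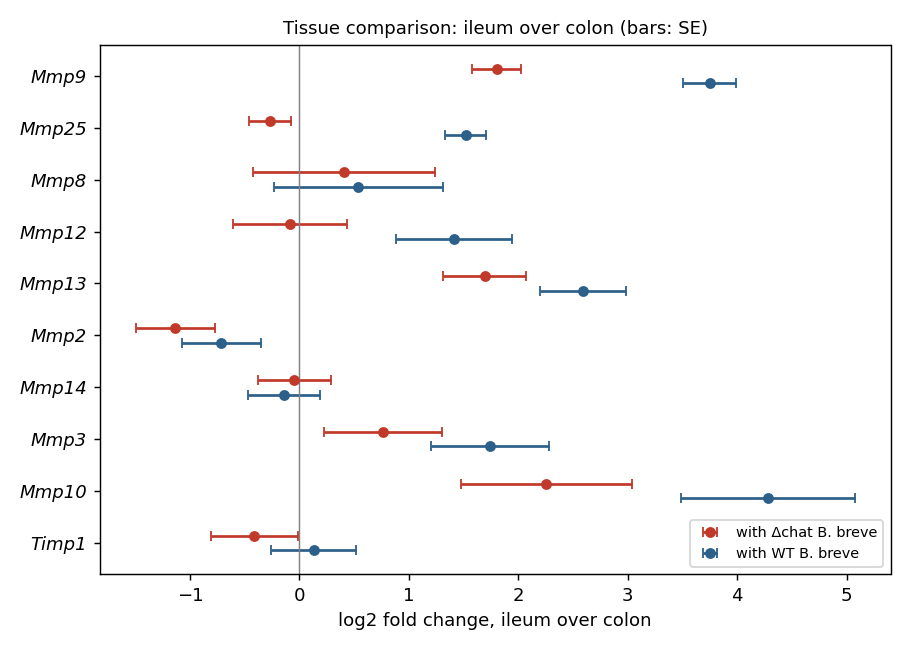
Log2 fold change of ileum over colon (horizontal axis) for the 10 genes in mice with Δchat and in mice with WT *B. breve*, with SE as bars. *Mmp9* and *Mmp13* lie above 0 with either strain, and *Mmp25* lies at -0.27 with Δchat and 1.52 with WT. The estimates of *Mmp10* rest on at most 11 counts per colon library.

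Levels of different genes were compared per kb of exon length, as CPM per kb of the merged exons in GENCODE M21. In ileum with Δchat, *Mmp13* stood highest at 38.7 ± 23.7 CPM per kb (SD, n = 4), followed by *Mmp2* at 15.6 ± 7.88, *Mmp14* at 14.1 ± 7.24 and *Mmp9* at 8.20 ± 2.52. In ileum with WT, *Mmp13* stood at 57.8 ± 12.1 CPM per kb, *Mmp2* at 26.7 ± 6.20, *Mmp9* at 24.3 ± 4.34 and *Mmp14* at 14.7 ± 3.01. *Mmp2* and *Mmp9* differed by less than their spread there. In colon, *Mmp2* led with 34.3 ± 10.2 CPM per kb with Δchat and 43.8 ± 18.5 with WT, followed by *Mmp14* (14.5 ± 3.65 and 16.2 ± 5.32) and *Mmp13* (11.95 ± 3.82 and 9.59 ± 2.65). The remaining members were at or below 5.94 CPM per kb in every group, and their order was mostly within their spread. *Mmp8* was last in ileum with either strain, and *Mmp10* was last in colon.

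The label of the granulocyte members was checked against 15 neutrophil markers; those named here were picked after their values were seen. Some neutrophil genes of the list were at or near 0 in most libraries, and others were not. Over the ileum libraries *Csf3r* stood at 13.8 to 40.0 CPM and *Trem1* at 7.81 to 19.5 CPM. Both were called higher in ileum than in colon with either strain. *Elane*, neutrophil elastase, was at 0 in all 8 libraries with Δchat, and *Ngp* too. *Ly6g*, the surface marker used to gate neutrophils, stayed at or below 0.179 CPM in every ileum library and reached 8.47 CPM in colon Δchat replicate 3, the library rich in epithelial transcripts. *S100a8*, one of the most abundant neutrophil transcripts, stood at 1.31, 0.708, 1.03 and 0.900 CPM in ileum with Δchat, against 3.63, 0.955, 2.42 and 0.445 CPM in ileum with WT. *Mmp9* in those same libraries stood at 18.8 CPM or more. The library with the most *Mpo* (myeloperoxidase, 11.1 CPM), *Elane* (3.18 CPM) and *S100a8* (7.12 CPM) was colon WT replicate 1, in which *Mmp9* stood at 6.13 CPM, within the range of the other colon libraries, and *Mmp25* at 6.68 CPM, the lowest of the colon libraries. *Mmp8* was highest of the colon libraries there, at 1.75 CPM. The name granulocyte members comes from what is known of these genes elsewhere, and the neutrophil markers did not all go one way with it.

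Some other markers moved with *Mmp9* and *Mmp25* in ileum, and others did not. Of the 9 neutrophil markers tested there, 7 had a negative log2 fold change of Δchat over WT (median -0.88). Of these 9 markers, 4 had an unadjusted p below 0.05, beside 1581 of all 14496 genes tested in ileum. By edgeR 0 of the 9 were called. *Mpo* went the other way at low levels, with 0.719, 0.545, 0.471 and 0.557 CPM with Δchat and 0.119, 0.112, 0.224 and 0.111 CPM with WT. *Csf3r* stood at 16.4, 40.0, 21.6 and 13.8 CPM with Δchat, against 23.5, 15.9, 18.3 and 16.7 CPM with WT. *Retnlg*, a resistin-like gene known from neutrophils, stood at 4.32, 3.70, 2.10 and 3.77 CPM in ileum with Δchat, against 30.9, 28.8, 27.1 and 8.07 CPM in ileum with WT. WT replicate 4 was the low one, as for *Mmp25*. *Alox15*, a lipoxygenase of eosinophils and resident macrophages, showed the same shape, with 2.35, 2.56, 1.80 and 2.53 CPM with Δchat and 22.7, 23.9, 26.3 and 8.73 CPM with WT. *Ccr3*, the eotaxin receptor of eosinophils, had 0.262 to 1.24 CPM with Δchat and 2.34 to 6.73 CPM with WT, while *Epx*, eosinophil peroxidase, was near 0 throughout. Over the whole list, the summed level of the 15 neutrophil markers was 118 to 231 CPM in ileum with Δchat and 220 to 325 CPM in ileum with WT, with 7 and 10 of the 15 at 1 CPM or more on average. Most of this sum was *Il1r2*, a decoy receptor for interleukin 1, at 117 ± 36.2 CPM with Δchat and 211 ± 37.8 CPM with WT (SD, n = 4 each), whose deviations correlated with those of *Mmp13* at 0.92. *Camp*, *Ngp* and *Elane* were at 0 in all ileum libraries with Δchat, and none of the list was at 0 in all with WT. The 10 eosinophil markers summed to 46.6 to 74.0 CPM with Δchat and 75.8 to 111 CPM with WT, with *Ear1* and *Ear6* at 0 in both. Their part in the values of *Mmp9* and *Mmp25* was not tested.

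**Figure D4:**
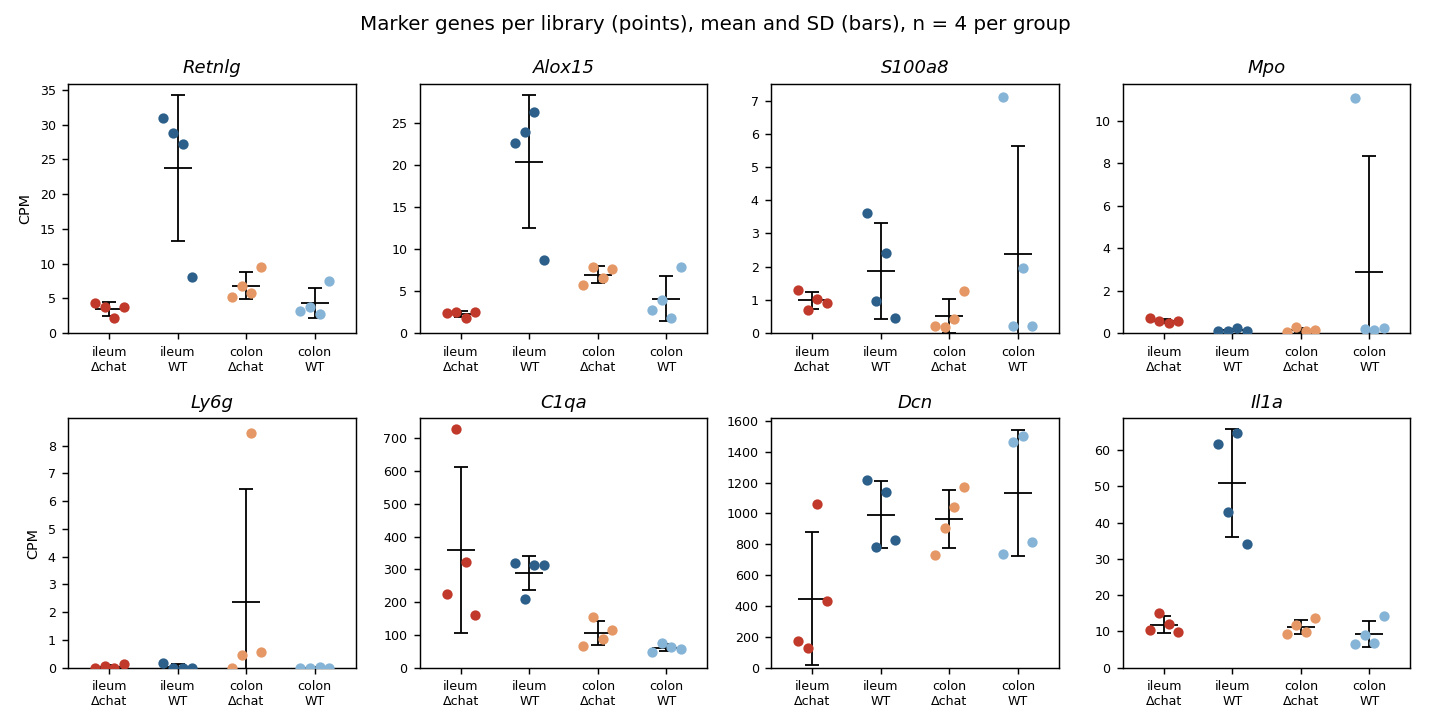
CPM (vertical axes, linear and starting at 0) of marker genes in the 4 libraries of each group, as points with mean and SD (bars cut off at 0). *Retnlg*, *Alox15* and *Il1a* are high in ileum with WT, while *S100a8* and *Mpo* are highest in a single colon library with WT and *Ly6g* in a single colon library with Δchat.

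The members also varied between libraries of the same group, and this variation did not follow the labels in every case. For each library the deviation of log2 CPM from its group mean was taken, and Pearson coefficients were computed over 16 libraries, which come from 8 mice. They share depth and cell makeup and are given as a description, and the marker genes set beside the members were picked after their values were seen. *Mmp13*, sorted as stromal, varied with the macrophage genes *C1qa* (coefficient 0.95) and *Csf1r* (0.89). Its coefficients with the fibroblast genes *Dcn* (-0.03) and *Col1a1* (0.08) were near 0, but this rested on ileum Δchat replicate 2, rich in macrophage and poor in fibroblast transcripts: without it they were 0.52 and 0.62. *Mmp12* stood at 0.87 with *C1qa*, and the coefficient between *Mmp12* and *Mmp13* was 0.89. Without that library the values were 0.91 for *Mmp13* with *C1qa* and 0.75 for *Mmp12* with *C1qa*. *Mmp3* varied with *Dcn* (0.88) and *Mmp2* with *Col1a1* (0.71), or 0.84 and 0.89 without that library. *Mmp14* stood at 0.83 with *Mmp2* and 0.86 with *Mmp13*, or 0.95 and 0.78 without that library. Its coefficients with *Dcn* and *Col1a1* were 0.17 and 0.27, or 0.71 and 0.81 without that library. With *C1qa* it stood at 0.80, or 0.69 without that library.

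Among the granulocyte members the coefficients were low, at 0.40 between *Mmp9* and *Mmp25*, 0.33 between *Mmp9* and *Mmp8* and 0.03 between *Mmp25* and *Mmp8*. *Mmp25* varied with *Cebpe*, a transcription factor of granulocytes (0.80), *Retnlg* (0.77) and *Alox15* (0.75), and the coefficients of *Mmp9* with these genes were 0.52, 0.19 and 0.31. *Mmp8* stood at 0.60 with *S100a8*, 0.51 with *S100a9* and 0.44 with *Mpo*. The coefficients with these 3 genes were -0.12, -0.20 and 0.04 for *Mmp9* and -0.19, -0.17 and -0.24 for *Mmp25*. *Mmp9* stood at 0.67 with *C1qa* and at -0.73 with the epithelial gene *Epcam*. *Timp1* varied with *Mmp2* (0.68).

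**Figure D5:**
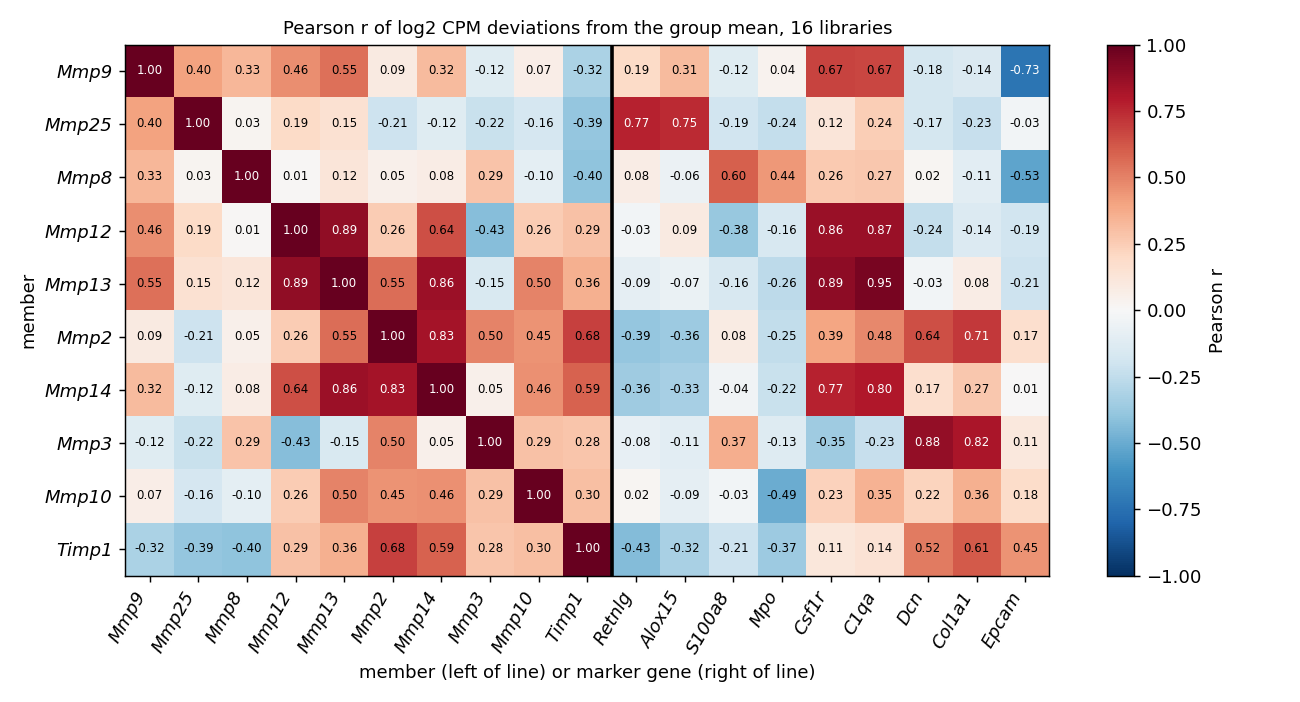
Pearson coefficients of log2 CPM deviations from the group mean over 16 libraries, between the 10 genes (rows and columns left of the line) and marker genes (right of the line), from blue for -1 to red for 1. *Mmp12* and *Mmp13* are red with *Csf1r* and *C1qa*, *Mmp3* with *Dcn* and *Col1a1*, and *Mmp25* with *Retnlg* and *Alox15*.

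The genes most like each member were sought among 11018 named genes of at least 5 CPM on average, for the 7 members that reached that level, by the same coefficient over 16 libraries. This search was not repeated without ileum Δchat replicate 2, the library that moved several coefficients above. For *Mmp13* they included *Cxcl16* (0.96), a chemokine, and *Cd68* (0.96), a macrophage lysosomal protein. For *Mmp12* they were *H2afz* (0.93), *Aph1c* (0.93) and *Cd300a* (0.92). For *Mmp3* they were *Adcyap1r1* (0.92), a neuropeptide receptor, *Medag* (0.91) and *Mgp* (0.91), the matrix Gla protein. For *Mmp2* they were *Pam* (0.96), *S100a11* (0.96) and *Kdelc2* (0.95), and for *Mmp14* *Nsmf* (0.97), *Sumf1* (0.96) and *Acp2* (0.96). *Mmp9* and *Mmp25* had less close neighbours, *Cwc25* (0.84), *Cdk11b* (0.83) and *Lgmn* (0.82), a lysosomal protease, for *Mmp9*, and *Lyrm2* (0.81), *Cyren* (0.80) and *Usp32* (0.79) for *Mmp25*.

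Fibroblast markers moved with the stromal members in ileum. Their summed level was 1520 to 6838 CPM with Δchat, with a median of 2173, and 4239 to 6781 CPM with WT, with a median of 5850. All 11 were at 1 CPM or more on average and none was at 0. All 11 log2 fold changes were negative (median -1.01), and 0 of the 11 were called by edgeR, with 1 at an unadjusted p below 0.05. Of all 14496 genes tested in ileum, 1581 had an unadjusted p below 0.05. Macrophage markers summed to 812 to 3548 CPM with Δchat and 1175 to 1676 CPM with WT. The medians of these sums were 1350 CPM with Δchat and 1592 CPM with WT, and the highest sum was that of Δchat replicate 2. The log2 fold changes of the markers are not given here without that library. Of the 10, 9 had a positive log2 fold change (median 0.16), the other sign than *Mmp12* and *Mmp13*, with 0 called by edgeR and 0 at an unadjusted p below 0.05. The part of either list in the values of *Mmp2*, *Mmp3*, *Mmp12* and *Mmp13* was not tested.

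The rest of the metalloproteinase family held 14 further genes, of which 7 were tested in colon and 8 in the other comparisons. By strain, 0 of them were called by edgeR in either tissue, with 0 at an unadjusted p below 0.05 in ileum and 1 in colon. Over all genes tested, 1581 of 14496 in ileum and 1951 of 14660 in colon had an unadjusted p below 0.05. The same totals apply to the lists of inhibitors, activators and inducers below. *Mmp15*, a membrane-type enzyme with the highest mean CPM of the list, had a log2 fold change of 0.28 ± 0.18 in ileum (edgeR adjusted p = 0.589) and 0.97 ± 0.28 in colon (edgeR adjusted p = 0.313). *Mmp19* had -0.75 ± 0.39 in ileum and -0.26 ± 0.21 in colon. *Mmp7* (matrilysin, an enzyme of Paneth cells in the small intestine, at the far end of the chromosome 9 cluster) passed the filter only through ileum, and its levels are given without a test. It stood at 13.4 ± 10.4 CPM in ileum and 0.131 ± 0.115 CPM in colon with Δchat, and at 6.21 ± 5.98 CPM in ileum and 0.183 ± 0.367 CPM in colon with WT (SD, n = 4 each). *Mmp11* was lower in ileum with either strain, and *Mmp15* was higher in ileum with WT (0.89 ± 0.24, edgeR adjusted p = 0.0147).

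Other protease inhibitors, 10 genes, had 0 calls by strain in edgeR, with 3 at an unadjusted p below 0.05 in each tissue. All 8 tested in ileum were negative (median -0.21). *Timp3* had 418 ± 91.1 CPM in ileum with Δchat and 459 ± 74.6 CPM in ileum with WT (SD, n = 4 each; log2 fold change -0.15 ± 0.18, edgeR adjusted p = 0.778). *Timp2*, which forms a complex with Mmp14 to activate Mmp2, was lower in ileum than in colon with either strain. Its log2 fold change was -1.08 ± 0.27 with Δchat (edgeR adjusted p = 0.0166) and -0.87 ± 0.27 with WT (edgeR adjusted p = 0.0266).

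Among 14 genes whose products open the precursors, 0 were called by strain in edgeR, with 1 at an unadjusted p below 0.05 in ileum and 2 in colon. *Furin*, a convertase that opens membrane-type enzymes, was higher in ileum than in colon, by 0.47 ± 0.11 with Δchat (edgeR adjusted p = 0.0109) and 0.71 ± 0.11 with WT (edgeR adjusted p = 0.000653) on the log2 scale. *Plat*, a plasminogen activator, was higher in ileum too, and the mast cell protease *Mcpt4* was lower in ileum with either strain. *Plg* itself was not tested.

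Of 12 genes for signals that induce metalloproteinases, *Il1a* was the 1 called by strain in ileum. It stood at 10.5, 15.2, 12.1 and 9.77 CPM with Δchat and at 61.7, 43.0, 64.8 and 34.0 CPM with WT (log2 fold change -2.12 ± 0.23, edgeR adjusted p = 0.0498). The ileum comparison called 0 genes with RLE scaling, the filter of 1 CPM or the replicate block, so this call was lost in each. The replicate block of a strain fit joins different mice that share only a number, so little can be read from its loss there. The call of *Il1a* was lost in the same way without Δchat replicate 1 or 4, or without WT replicate 1, 2 or 3. Of the 3 genes called in the main fit, 1 was kept without Δchat replicate 2 and 2 were kept with limma-voom. Whether *Il1a* was among those kept is not given here. The other 11 inducers did not pass, with 6 of the 12 at an unadjusted p below 0.05 in ileum, and in colon 0 were called by edgeR and 5 were at an unadjusted p below 0.05. Picked after their values were seen, *Il17a* had a log2 fold change of -2.34 ± 0.49, *Il6* one of -1.35 ± 0.27 and *Ifng* one of 1.22 ± 0.30 in ileum (edgeR adjusted p = 0.180, 0.173 and 0.207). *Il1b* had -0.08 ± 0.36 on the log2 scale and *Tnf* stood at 64.5 ± 45.1 CPM with Δchat and 32.3 ± 3.38 CPM with WT (SD, n = 4 each). With WT, 6 of the 12 were higher in ileum than in colon and 0 lower, among them *Il1a*, *Il17a*, *Il1b* and *Il6*. With Δchat, 3 of the 12 were higher, *Tnf*, *Il1b* and *Il22*.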

How the data were processed

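The deposited table holds estimated counts per Ensembl gene for 16 libraries; per the submitters' processing notes the authors used cutadapt 5.0, Salmon 1.4.0 and GRCm39. Between 34.8 and 40.7% of values were not whole, and they were rounded. How transcripts were summed to genes is not given in the sources used here. Symbols were matched for 35105 of 35647 identifiers.

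Libraries were grouped by title. Each comparison used edgeR 4.0.16 in R 4.3.3 (filterByExpr, TMM, robust quasi-likelihood fit, 2-sided tests, Benjamini-Hochberg adjustment over all genes tested, threshold 0.05). Strain was compared in 8 libraries per tissue, and tissues, and the difference of strain effects, in 1 fit over 16. Fold changes come from these fits; CPM are scaled by TMM over all 16. Log2 CPM for coefficients have a prior count of 2. The fits were tested on simulated counts. No pair of replicates was a copy (chi-square per degree of freedom 25.4 to 93.4). P-values of the strain fits within a tissue measure the spread between mice. The main fit over 16 libraries had no mouse term, so ileum and colon of a mouse counted there as independent.

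Ileum and colon of a mouse share strain and number, as the design gives 4 mice per group. Deviations of the pairs correlated at -0.22 to 0.37. Numbers do not pair mice across strains.

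The members, lists and tests were chosen with earlier results of these data known. All 10 members are named. In other lists, the named genes are at most the 4 smallest p among those called in a comparison; where nothing was called, the 2 most abundant members could be named. Some genes the rule takes are not reported here. Marker genes were picked after their values were seen. Alternatives were RLE scaling, no filter, a filter of 1 CPM, DESeq2 1.42.0, limma-voom (limma 3.58.1) with quality weights, removal of immunoglobulin genes, a replicate or mouse block, 1 fit over all libraries, and each library left out.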

Additional observations from a re-analysis of the deposited data

Results flagged for a closer look

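The strain effect differed between the tissues for 2 of the 10 genes by the interaction term of the fit over 16 libraries (0.0592% of all genes), by -1.95 for *Mmp9* and -1.79 for *Mmp25* (log2, ileum minus colon). The ileum values that enter it guided the choice of the genes. Neither call held with the mouse as a block, and that of *Mmp9* was lost on leaving out 13 of the 16 libraries, one at a time, and that of *Mmp25* on leaving out 11.

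Single libraries lay far from the other 3 of their group in 3 of 40 sets of 4 libraries, where chance gives about 2. They were *Mmp9* in colon with Δchat, lowest at 5.51 CPM in the epithelium-rich replicate 3, *Mmp12* in ileum with Δchat, highest at 27.9 CPM in the macrophage-rich replicate 2, and *Mmp3* in colon with WT, highest at 4.63 CPM in replicate 3.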

How the results depend on the processing

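Of 988 values of single members under alternatives, 891 kept their direction and side of the threshold, 32 lost a call, 30 gained one and 35 changed sign. The strain comparison in colon called 1 gene, against 308 with DESeq2, 10 in 1 fit over all libraries and 0 with the replicate block, and 0 to 3 without single libraries. That in ileum called 3 genes, against 0 with RLE scaling, the stricter filter or the replicate block, 5 with no filter, 375 with DESeq2, 135 with limma-voom and 42 in 1 fit, and 0 to 247 without single libraries, the highest without ileum Δchat replicate 3. The difference between tissues called 9 genes, against 58 with DESeq2 and 3 with the mouse as replicate block, and 0 to 35 without single libraries, the highest without ileum Δchat replicate 2. Ileum against colon called 1315 to 2177 genes with Δchat and 2606 to 4772 with WT without single libraries, around 2028 and 4380 with all. The lowest of these came without ileum Δchat replicate 2 (1315) and colon WT replicate 1 (2606). The mouse block changed no call of a member beyond those given above. Same-numbered mice of different strains correlated at -0.38 to 0.36, and the 2 tissues of a mouse at -0.22 to 0.37. The ranges are alike, so these coefficients cannot settle either pairing, which is taken from the design.

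Signs changed for values near 0. Without single libraries, the strain effect ran from -0.039 to 0.14 for *Mmp25* and -0.29 to 0.032 for *Mmp14* in colon, and from -0.43 to 0.12 for *Mmp14* in ileum. The difference between tissues ran from -0.89 to 0.40 for *Mmp8* and -0.26 to 0.30 for *Mmp14*, with -0.15 by limma-voom and -0.048 with the block. Ileum over colon with Δchat ran from -0.060 to 0.76 for *Mmp8* (-0.27 by limma-voom), -0.90 to 0.35 for *Mmp12* and -0.39 to 0.16 for *Mmp14*. With WT it ran from -0.28 to 0.045 for *Mmp14* and -0.022 to 0.35 for *Timp1* (-0.080 by limma-voom). The cause of these changes was not tested. At 38 or fewer counts per library, *Mmp8* and colon *Mmp10* are limited by depth.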

Other observations

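Of the ADAM and ADAMTS families, the related membrane and secreted metalloproteinases, 18 of 19 listed genes were tested. By strain 0 were called by edgeR in either tissue, with 4 at an unadjusted p below 0.05 in ileum and 2 in colon. Over all genes tested, 1581 of 14496 in ileum and 1951 of 14660 in colon had an unadjusted p below 0.05. *Adam8*, a protease of myeloid cells, was lower in ileum than in colon with Δchat (42.3 ± 17.7 and 66.2 ± 8.23 CPM; edgeR adjusted p = 0.0482) and higher with WT (85.6 ± 8.84 and 51.1 ± 5.64 CPM, SD, n = 4 each; edgeR adjusted p = 0.0151). The difference of its strain effect between tissues was -1.39 ± 0.29 and did not pass (edgeR adjusted p = 0.173). *Adam33* was higher in ileum with either strain, by 1.34 ± 0.28 with Δchat and 1.31 ± 0.28 with WT on the log2 scale. With WT, 7 of the 18 were higher in ileum and 0 lower, *Adam12* (1.09 ± 0.20) and *Adamts9* (1.12 ± 0.26) among them.

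Of 12 matrix proteins that these enzymes cut, 0 were called by strain in edgeR, with 1 at an unadjusted p below 0.05 in each tissue. The totals over all genes were 1581 of 14496 in ileum and 1951 of 14660 in colon. *Fn1*, fibronectin, was lower in ileum than in colon, by -1.49 ± 0.25 with Δchat and -0.81 ± 0.25 with WT, and *Vcan*, versican, by -1.68 ± 0.38 and -1.12 ± 0.38 on the log2 scale.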
